A study of Mus musculus with 13 samples.

Results

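Dkk2, Lox, Mthfs and Tmsb10 are 4 of the 19737 genes in the deposited table of mouse microglia. They were chosen by their measured FPKM, which was higher in every 5xFAD PKR knockout library than in the 5xFAD libraries with the EGFP vector and was called in the linear model, and they fell into no other gene family of interest. FPKM is fragments per kilobase of exon, scaled to the library's total fragments. All 4 were found in the table, and all 4 passed the filter for testing (an average of 1 FPKM or more across the 13 libraries), as did 10817 genes in all.

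The genes code for proteins with unrelated jobs. Dkk2 is a secreted protein of the Dickkopf family that binds the Wnt co-receptors LRP5 and LRP6 and tunes canonical Wnt signalling, in which Wnt ligands stabilise beta-catenin and so switch on TCF/LEF target genes. Lox is lysyl oxidase, a secreted copper-dependent amine oxidase that starts the cross-linking of collagen and elastin. Mthfs is methenyltetrahydrofolate synthetase, the enzyme that returns 5-formyltetrahydrofolate (folinic acid) to the pool of active one-carbon folates. Tmsb10 is thymosin beta 10, a small peptide that binds actin monomers, as does its abundant relative Tmsb4x (thymosin beta 4). Microglia are the resident macrophages of the brain, and they move and engulf by remodelling actin.

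Total RNA depleted of ribosomal RNA was sequenced, with a stranded kit, in 13 libraries of 4 groups, and the series' design text gives the number in each group as mice. The 5xFAD mouse carries human transgenes with familial Alzheimer's disease mutations, driven in neurons by the Thy1 promoter. The vector AAV PHP.eB-EGFP, an adeno-associated virus that carries EGFP, had been given to the wild type mice (n = 3) and to 1 group of 5xFAD mice (n = 2). Further 5xFAD mice (n = 4) had received AAV PHP.eB with circPOLR2A, a circular RNA, and the last group was 5xFAD; PKR KO (n = 4). The construct names of the circRNA libraries differ in their last number, from circPOLR2A(9,10) to circPOLR2A(9,13), while the design text names the first for all of them. No vector is named for the PKR knockout mice, so the knockout and any difference in vector cannot be told apart. Library names are given for the PKR knockout libraries and for no other group, so the knockout and any difference in library preparation cannot be told apart either. Age, sex and how the microglia were isolated are not given in the sources used here.

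Depth, recovered from the steps in the FPKM values, was 45.2 to 70.0 M (mega) fragments, and the 4 PKR knockout libraries (57.7 to 70.0 M) were the deepest. Wild type replicate 3 stood apart from the other wild type libraries, with a chi-square per degree of freedom of 149 and 180 against them where they had 19.2 against each other. No pair of replicates agreed within sampling noise (13.7 to 180), so all 13 were counted separately. Eif2ak2, the gene of PKR, the kinase that double-stranded RNA activates, had 3.86 ± 0.639 FPKM (SD, n = 4) in the knockout, 6.54 ± 0.0705 (SD, n = 2) with EGFP, 7.67 ± 0.327 (SD, n = 4) with circRNA and 4.85 ± 0.613 (SD, n = 3) in wild type. Every knockout library was below every other 5xFAD library but not below every wild type library, and which exons were deleted is not given in the sources used here. The knockout differed from circRNA (log2 difference -0.85 ± 0.09 SE, adjusted p = 0.0015, limma) and missed the threshold against EGFP (-0.64 ± 0.11 SE, adjusted p = 0.0644, limma). In such bulk libraries, fewer cells of a type and less RNA per cell cannot be told apart.

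Dkk2 lies on chromosome 3 (132085292 to 132180304, plus strand, GRCm38) (Lox is described further on), Mthfs on chromosome 9 (89210676 to 89377713, plus strand) and Tmsb10 on chromosome 6 (72957347 to 72958748, minus strand). Their summed exon lengths are 3705, 7638 and 1276 bases, so 1 FPKM rests on fewer fragments in Tmsb10 than in the others. The 250 bases upstream of the Dkk2 start (RefSeq, GRCm38.p6, chr3:132085042-132085291, plus strand) are shown because Dkk2 was the member closest to silence in wild type. The capitals mark a TATA box match (TATAAA) and matches to the GC box (GGGCGG).
Dkk2: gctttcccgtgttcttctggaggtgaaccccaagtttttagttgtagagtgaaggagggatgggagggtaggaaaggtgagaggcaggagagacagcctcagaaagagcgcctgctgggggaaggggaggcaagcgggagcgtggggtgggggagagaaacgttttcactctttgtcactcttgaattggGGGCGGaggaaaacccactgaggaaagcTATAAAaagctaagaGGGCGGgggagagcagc

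Windows of this length were searched for Dkk2, Mthfs and Tmsb10, on both strands, in the RefSeq table of 32851 promoters. TATAAA was found in Dkk2 but not in the Mthfs or Tmsb10 windows, and 12.4% of all windows hold it. GGGCGG was found in the windows of all 3 genes and in 32.7% of all windows. None of the 3 genes' windows held AP-1 (TGANTCA, 6.75% of all windows), CRE (TGACGTCA, 1.55%), the ATF4 composite element (TGATGNAA, 3.45%), TCF/LEF (ATCAAAG, 3.21%), PU.1 (GAGGAAGT, 2.44%), NF-kappaB (3.90%) or ISRE (2.98%). A match describes letters only, and the lack of one says nothing of the factor.

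Tmsb10 and Mthfs each have a close relative in the genome, and how reads tell the relatives apart bears on their values. The coding sequences of Tmsb10 and Tmsb4x (GENCODE M21, without the stop codon) are shown with the bases that differ in capitals. Both have 132 bases, of which 92 (69.7%) are identical and 40 differ.
Tmsb10: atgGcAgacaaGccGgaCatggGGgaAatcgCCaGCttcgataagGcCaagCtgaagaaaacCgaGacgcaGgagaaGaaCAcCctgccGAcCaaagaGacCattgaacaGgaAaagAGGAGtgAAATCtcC
Tmsb4x: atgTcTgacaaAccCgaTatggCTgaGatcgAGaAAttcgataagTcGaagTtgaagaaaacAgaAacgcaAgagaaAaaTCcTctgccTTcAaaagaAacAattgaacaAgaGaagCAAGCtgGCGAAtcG

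Mthfs has a near-identical copy, Mthfsl, on the minus strand of the same chromosome (88688602 to 88720296, GRCm38). Their coding sequences share 606 of 609 bases (99.5%), and the 3 differences, counted from 1 at the A of the start codon with the Mthfs base first, are A168G, G245A and T292C. The 250 bases upstream of the first RefSeq start of Mthfs are also in the RefSeq promoter table for Mthfsl, with 0 differences. Bases 151 to 310 of the Mthfs coding sequence are shown with those 3 bases in capitals, since a read within a lower-case stretch matches both genes.
Mthfs: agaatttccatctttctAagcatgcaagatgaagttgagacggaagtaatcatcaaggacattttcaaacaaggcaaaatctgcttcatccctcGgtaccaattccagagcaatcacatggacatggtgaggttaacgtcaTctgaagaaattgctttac

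The values that chose the genes come from the comparison of PKR knockout with EGFP in 5xFAD. In it 9 of 10817 genes were called at an adjusted p below 0.05 (limma), which is 0.0832% of those tested, and all 9 were higher in the knockout. Ordered by the size of the moderated statistic, Mthfs was rank 2, Tmsb10 rank 4, Dkk2 rank 6 and Lox rank 8 among them. The member just inside the threshold was Lox, with Cdkn1a (log2 difference 0.82) the last gene inside, and Plekho2 (0.68) the first outside with a selecting adjusted p of 0.0539 against 0.0430 for the called genes (limma). The selection was narrow: over 22 alternative fits, Dkk2, Mthfs and Tmsb10 were below 0.05 in 8 and Lox in 7. Their selecting adjusted p ranged up to 0.5745. The log2 differences were positive in all 22, but choosing genes higher in every knockout library largely fixed that sign. With every knockout library above every EGFP library, the members are among 1920 genes (17.7% of those tested). These figures describe how the genes were chosen, and no test is given for this comparison.

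**Figure D1:**
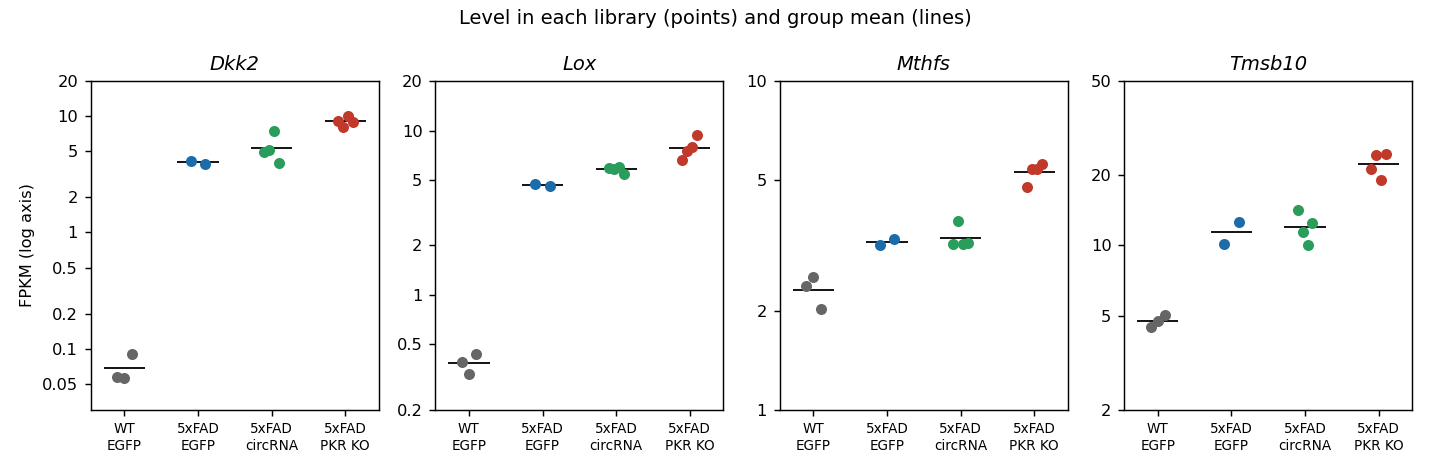
FPKM of the 4 genes in each of the 13 libraries (points; log axis, with a different range in each panel) and the group means (lines), by group. In all 4 panels the wild type points are lowest and the PKR knockout points highest, and the knockout points do not overlap any other group.

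Dkk2, the Wnt modulator, was at the edge of detection in wild type microglia. Its FPKM was 0.0571, 0.0566 and 0.0909 in wild type replicates 1 to 3, from 10, 10 and 17 fragments. The 37 wild type fragments together gave 0.0687 FPKM, with an exact Poisson 95% interval of 0.0484 to 0.0947 that covers counting error only. All 10 libraries from 5xFAD mice were far above this. With EGFP the values were 4.09 and 3.91 FPKM, with circRNA 4.96, 5.14, 7.44 and 3.94, and with PKR knockout 9.03, 8.13, 10.1 and 8.85. The EGFP and circRNA libraries overlapped, and the lowest knockout library lay just above circRNA replicate 3, the highest of that group. The group means were 0.0682 ± 0.0197 FPKM (SD, n = 3) in wild type, 4.00 ± 0.131 (SD, n = 2) with EGFP, 5.37 ± 1.48 (SD, n = 4) with circRNA and 9.02 ± 0.798 (SD, n = 4) in the knockout. The ratio of means was 2.26 for knockout over EGFP and 1.68 for knockout over circRNA.

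The spread of Dkk2 between replicates was uneven. In the circRNA group its coefficient of variation was 27.5%, where counting alone gives 3.23%, and it was 8.85% in the knockout, where counting gives 2.16%. In wild type the 28.8% spread was about what counting gives (28.5%), so wild type libraries could not be told apart in Dkk2 at this depth.

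The other Dickkopf genes had other patterns. Dkk1 and Dkk4 were listed at 0 in all 13 libraries, and Dkk3 had means of 3.16 FPKM in the knockout, 4.02 with EGFP, 4.74 with circRNA and 6.08 in wild type. That wild type mean rests on replicate 3, with 11.2 FPKM beside 3.78 and 3.30 in the other two, and it was 3.54 FPKM without that library, below EGFP and circRNA. Its co-receptors were present in every group: Lrp5 had means of 11.7 to 14.2 FPKM and Lrp6 7.16 to 8.56. Kremen1, a receptor through which Dickkopf proteins remove LRP6 from the cell surface, had means of 2.32 to 2.84 FPKM.

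Lox, the matrix cross-linking enzyme (chromosome 18, 52516067 to 52529867, minus strand, GRCm38, 4778 exon bases), had the same order of groups at a higher floor. In wild type its FPKM was 0.390, 0.329 and 0.440, from 88, 75 and 106 fragments. With EGFP it was 4.75 and 4.61 FPKM, with circRNA 5.95, 5.83, 6.01 and 5.42, and with PKR knockout 6.58, 7.49, 7.99 and 9.33. For Lox no 2 groups overlapped. Means were 0.386 ± 0.0553 FPKM (SD, n = 3), 4.68 ± 0.0975 (SD, n = 2), 5.80 ± 0.264 (SD, n = 4) and 7.85 ± 1.15 (SD, n = 4) in that order of groups. The ratio of means was 1.68 for knockout over EGFP and 1.35 for knockout over circRNA. The coefficient of variation was 14.6% in the knockout and 14.3% in wild type, where counting alone gives 10.6%, and 4.54% with circRNA.

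The other lysyl oxidases had other patterns. Loxl3 had means of 2.78 to 3.06 FPKM over the 4 groups, and Loxl1, Loxl2 and Loxl4 had means of at most 0.690 FPKM in every group. Loxl1 and Loxl2 had their highest group mean in wild type (0.690 and 0.325 FPKM) and their lowest in the knockout (0.239 and 0.0907 FPKM). On the annotation, 30 exon bases of Lox (0.628% of its exon length) overlap the antisense gene AC161119.1, which is not a row of the table used here. The kit marks strand, and the strand setting used in counting is not given in the sources used here.

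Mthfs, the folate enzyme, showed the smallest contrast between 5xFAD and wild type. Its FPKM was 2.37, 2.53 and 2.02 in wild type, 3.18 and 3.31 with EGFP, 3.19, 3.76, 3.19 and 3.21 with circRNA, and 4.77, 5.42, 5.42 and 5.59 in the knockout. The EGFP and circRNA libraries overlapped, and the other pairs of groups did not. Means were 2.31 ± 0.259 FPKM (SD, n = 3), 3.25 ± 0.0961 (SD, n = 2), 3.34 ± 0.281 (SD, n = 4) and 5.30 ± 0.364 (SD, n = 4) in the same order. The ratio of means was 1.63 for knockout over EGFP and 1.59 for knockout over circRNA.

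The Mthfs values carry an uncertainty from its neighbours, which were singled out after their values were seen. Mthfsl had means of 2.68 FPKM in wild type, 3.25 with EGFP, 3.40 with circRNA and 4.14 in the knockout. It was not called for knockout against EGFP (log2 difference 0.27 ± 0.09 SE, adjusted p = 0.2469, limma) and was called for circRNA against wild type (0.26 ± 0.08 SE, adjusted p = 0.0329, limma). How the authors' counting split reads between the copies is not given in the sources used here. In some libraries the recovered fragments were not whole numbers, such as 856.17 for Mthfs and 664.83 for Mthfsl in wild type replicate 1. Whether the same reads entered the values of both genes was not tested. The ratio of Mthfs to Mthfsl was 0.797 to 0.909 in wild type, 0.983 to 1.01 with EGFP, 0.864 to 1.16 with circRNA and 1.25 to 1.36 in the knockout. The knockout ratios lay above those of every other library, but Mthfs was chosen for its high knockout values and Mthfsl was not.

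Mthfs also shares 262 exon bases (3.43% of its exon length) with Gm29094, a gene on the same strand next to the Bcl2a1 genes, which code for relatives of the survival protein BCL2. Gm29094 and Bcl2a1b were higher than Mthfs throughout, with means of 12.1 and 10.3 FPKM in wild type, 30.0 and 27.8 with EGFP, 34.5 and 31.8 with circRNA and 44.6 and 42.7 FPKM in the knockout. In both genes every knockout library was above every other library. The log2 differences of knockout minus EGFP were 0.56 ± 0.19 SE for Gm29094 and 0.60 ± 0.17 SE for Bcl2a1b, beside 0.57 for Mthfs, and missed the threshold (adjusted p = 0.2469 and 0.2101, limma). The part of the shared bases in the Mthfs values was not tested.

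**Figure D2:**
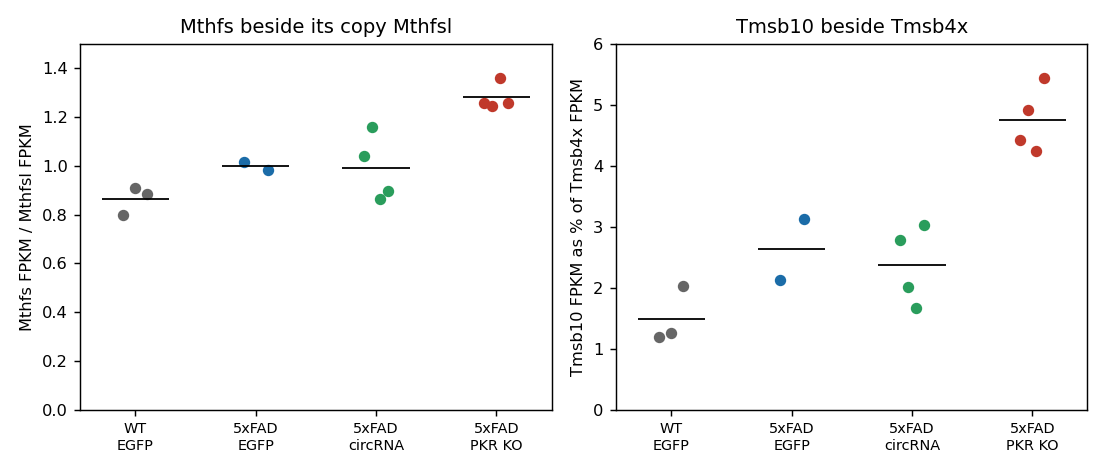
Left, FPKM of Mthfs divided by FPKM of its copy Mthfsl; right, FPKM of Tmsb10 as a percent of FPKM of Tmsb4x; each point is 1 library, each line a group mean, and both axes start at 0. The 4 PKR knockout points are above all others in both panels, at 1.25 to 1.36 on the left and 4.24% to 5.45% on the right. Mthfs and Tmsb10 were chosen for their high knockout values, and Mthfsl and Tmsb4x were not.

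Tmsb10, the actin monomer binder, was the most abundant of the 4 per length. Its FPKM was 4.48, 4.78 and 5.06 in wild type, 10.2 and 12.6 with EGFP, 14.1, 11.4, 10.0 and 12.4 with circRNA, and 21.2, 24.3, 19.1 and 24.4 in the knockout. EGFP and circRNA overlapped, and the knockout and wild type libraries each stood apart. Means were 4.78 ± 0.292 FPKM (SD, n = 3), 11.4 ± 1.73 (SD, n = 2), 12.0 ± 1.74 (SD, n = 4) and 22.2 ± 2.58 (SD, n = 4). The ratio of means was 1.95 for knockout over EGFP and 1.86 for knockout over circRNA.

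Its relative Tmsb4x was at far higher levels and ordered the groups differently, with means of 335 ± 73.9 FPKM (SD, n = 3) in wild type, 440 ± 53.4 (SD, n = 2) with EGFP, 520 ± 82.3 (SD, n = 4) with circRNA and 467 ± 22.8 (SD, n = 4) in the knockout. It was not called for knockout against EGFP (log2 difference 0.09, adjusted p = 0.8643, limma). Tmsb10 amounted to 1.19% to 2.02% of Tmsb4x in wild type, 2.13% to 3.14% with EGFP, 1.68% to 3.04% with circRNA and 4.24% to 5.45% in the knockout. The upper wild type value is that of replicate 3, and the other wild type libraries had 1.19% and 1.26%. The knockout share lay above all others, while the EGFP and circRNA shares overlapped each other. Tmsb10 was chosen for its high knockout values, and Tmsb4x was not. Of the other thymosins, Tmsb15b1, Tmsb15b2 and Tmsb15l had group means of at most 0.883 FPKM, and Tmsb15a was listed at 0 in all but 1 library.

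Each gene was lowest in wild type and highest in the knockout, so the 4 are among 113 tested genes (1.04%) in which every knockout library is above, and every wild type library below, all the others. The knockout side of that pattern is how they were chosen. On the log2(FPKM + 1) scale, which understates changes of low genes, the differences of knockout minus EGFP were 1.00 ± 0.15 for Dkk2, 0.63 ± 0.10 for Lox, 0.57 ± 0.08 for Mthfs and 0.91 ± 0.14 for Tmsb10 (each ± SE). Knockout minus circRNA gave 0.68 ± 0.13, 0.37 ± 0.08, 0.54 ± 0.07 and 0.84 ± 0.11 in the same order. The 2 comparisons share the knockout libraries and are set side by side only. Of all tested genes 480 (4.44%) have every knockout library above every circRNA library, and this set includes the 4 members.

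Between circRNA and EGFP the differences were small beside those against wild type. The log2 differences of circRNA minus EGFP were 0.32 ± 0.15 for Dkk2, 0.26 ± 0.10 for Lox, 0.03 ± 0.08 for Mthfs and 0.06 ± 0.14 for Tmsb10 (each ± SE). The signs of the Mthfs and Tmsb10 values turned (-0.06 and -0.04) when libraries were rescaled to the same FPKM sum. Lox had every circRNA library above both EGFP libraries, and the other 3 genes overlapped. Over all genes 0 (0%) were called in this comparison by limma, with 523 at an unadjusted p below 0.05, and 0 by the fit on recovered fragments.

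**Figure D3:**
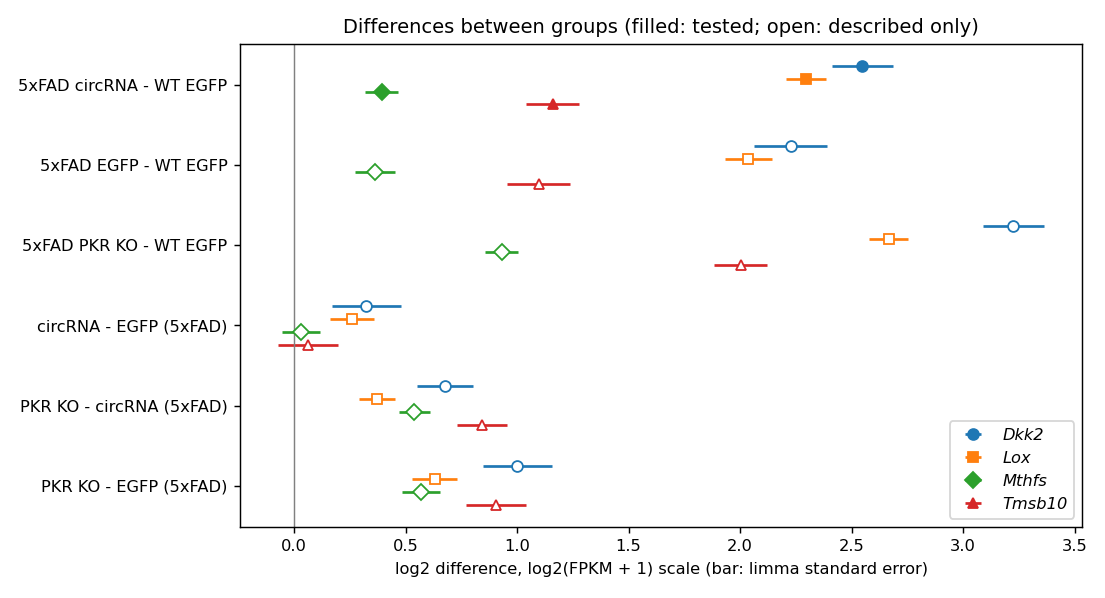
Log2 differences on the log2(FPKM + 1) scale (points) with limma standard errors (bars) for the 4 genes in 6 comparisons of groups; filled points were tested, open points are described only because they share libraries with the comparison that chose the genes. Dkk2 and Lox have their largest differences against wild type, from 2.04 to 3.23, and Mthfs and Tmsb10 differ least between circRNA and EGFP (0.03 and 0.06).

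Neither group of the comparison of circRNA-treated 5xFAD with wild type entered the difference that chose the genes. The model's error estimate is shared, however: it pools all 13 libraries and also entered the choice, so a fit on the 7 libraries of these 2 groups alone is given beside it. Dkk2 and Lox were under 1 FPKM in every wild type library, and so passed the filter through the 5xFAD groups. All 4 genes were higher in 5xFAD, where 1925 of 10817 genes were called higher (17.8%) and 871 lower (8.05%). Dkk2 differed by 2.55 ± 0.14 SE on the log2 scale (adjusted p = 8.05e-08, limma), with a ratio of means of 78.7 that rests on the few wild type fragments. Lox differed by 2.29 ± 0.09 SE (adjusted p = 5.07e-09, limma), a ratio of means of 15.0. Tmsb10 differed by 1.16 ± 0.12 SE (adjusted p = 2.3e-05, limma), a ratio of 2.51, and Mthfs by 0.39 ± 0.07 SE (adjusted p = 0.0021, limma), a ratio of 1.45. Fitted on the 2 groups alone, with 11.7% of genes called higher and 4.22% lower, the SE was 0.16 for Dkk2, 0.07 for Lox, 0.12 for Tmsb10 and 0.09 for Mthfs. The adjusted p was then 5.18e-05 for Dkk2, 1.16e-06 for Lox, 0.000482 for Tmsb10 and 0.0189 for Mthfs (limma). Without the filter on low values it was 1.3e-06 for Dkk2 and 9.78e-08 for Lox (limma).

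In each of the 4 genes every circRNA library was above every wild type library, as in 20.2% of tested genes. The exact two-sided permutation p was 0.0286 for each, the smallest that 4 against 3 libraries allow. Without wild type replicate 3 the log2 differences were 2.56 for Dkk2, 2.32 for Lox and 0.33 for Mthfs, and all 4 genes were called, Tmsb10 at an adjusted p of 6.5e-05 and Mthfs at 0.0085 (limma). The Mthfs call was lost when libraries were rescaled to the same FPKM sum (log2 difference 0.18, adjusted p = 0.0953, limma). That rescaling moved the median difference of all tested genes from 0.02 to -0.20, so the Mthfs value stood above that median in both.

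The differences against wild type from the other 5xFAD groups are described without a test. EGFP minus wild type gave log2 differences of 2.23 ± 0.16 for Dkk2, 2.04 ± 0.11 for Lox, 0.36 ± 0.09 for Mthfs and 1.10 ± 0.14 for Tmsb10 (each ± SE), in a comparison where 7.65% of genes were called higher and 6.35% lower. Knockout minus wild type gave 3.23 ± 0.14, 2.67 ± 0.09, 0.93 ± 0.07 and 2.00 ± 0.12 in the same order, where 17.5% of genes were called higher and 19.4% lower. Rescaling as above moved the median of all genes to -0.17 and -0.24 in these comparisons, and the 4 genes stayed positive in both. Of all genes 1371 (12.7%) had every 5xFAD library above every wild type library, and the 4 genes are among them.

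**Figure D4:**
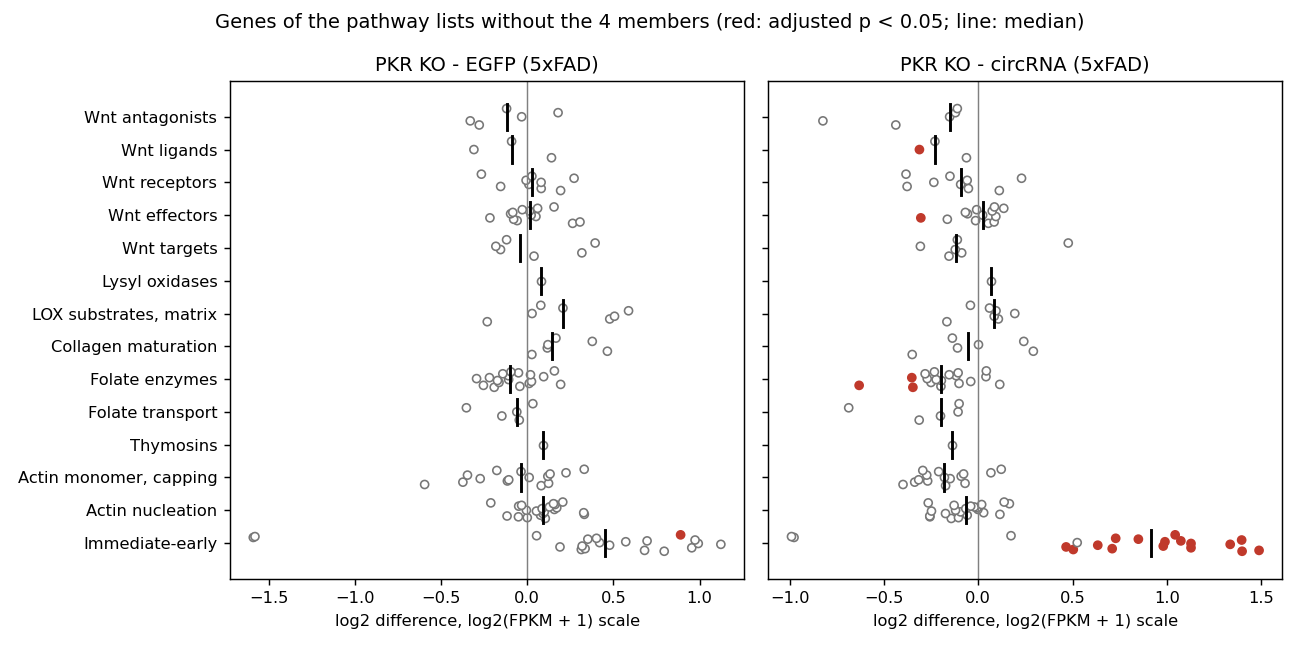
Log2 differences, log2(FPKM + 1) scale, of the tested genes of 14 pathway lists without the 4 members (each point 1 gene; short black line, the list's median), for PKR knockout minus EGFP (left) and PKR knockout minus circRNA (right) in 5xFAD; red points were called at an adjusted p below 0.05. On the left 1 immediate-early gene is called and no gene of another list, and on the right 16 of 20 immediate-early genes are called.

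The pathway partners of the 4 genes were taken from lists without the members themselves. For knockout against EGFP no partner in the Wnt, matrix, folate or actin lists was called, beside 0.0832% of all genes called higher and none lower. List medians lay close to the median of all tested genes, 0.01, in most lists.

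Among Wnt genes the medians were -0.12 for 5 tested antagonists, -0.09 for 3 ligands and secretion genes, 0.03 for 9 receptors, 0.01 for 13 effectors and -0.04 for 6 targets. The antagonists with the largest differences were Sostdc1 (-0.33, adjusted p = 0.7658, limma) and Dkk3 (-0.28, adjusted p = 0.7538, limma). Among targets these were Myc (0.39, adjusted p = 0.4403, limma) and Lef1 (0.32, adjusted p = 0.5600, limma). None of these Wnt partners passed the threshold here or with any single library left out, and of the other alternative fits arrayWeights called 1 receptor and 1 effector higher and 1 effector and 1 ligand gene lower.

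For Lox, its substrates and other matrix genes had a median of 0.21 over 7 tested genes, and genes of collagen maturation 0.14 over 6. Fn1, fibronectin, had a log2 difference of 0.59 (adjusted p = 0.3767, limma) and Col4a2, a basement membrane collagen chain, 0.51 (adjusted p = 0.4762, limma). P4ha1, a collagen prolyl hydroxylase subunit, had 0.47 (adjusted p = 0.4198, limma) and Plod3, a lysyl hydroxylase, 0.38 (adjusted p = 0.3608, limma). For Mthfs, the median of 18 tested folate enzymes was -0.10 and that of 5 folate transport genes -0.06. Gcsh, of the glycine cleavage system, had -0.29 (adjusted p = 0.3084, limma). For Tmsb10, the median was -0.04 over 15 genes of actin monomer binding and capping and 0.09 over 21 genes of actin nucleation. Pfn2, a profilin, had -0.60 (adjusted p = 0.4198, limma) and Arpc1b, of the Arp2/3 complex, 0.33 (adjusted p = 0.4041, limma). In alternative fits 1 matrix gene was called higher and 1 monomer binding or capping gene lower with the 2 groups alone, and with arrayWeights 1 collagen maturation gene and 1 monomer binding or capping gene were called higher.

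Against circRNA the knockout had few calls in these lists, beside 1.91% of all genes called higher and 4.28% lower. Of the 18 tested folate enzymes 3 fell and none rose: Mthfd2, the mitochondrial methylenetetrahydrofolate dehydrogenase (-0.63, adjusted p = 0.0345, limma), Mthfd1, the trifunctional cytosolic enzyme (-0.35, adjusted p = 0.0198, limma), and Dld (-0.35, adjusted p = 0.0203, limma). Mthfs, which was chosen for its high values in these same knockout libraries, was at 0.54. The folate count fell to 0 without circRNA replicate 1 or knockout replicate 2, and to 1 without knockout replicate 1 or 3. Porcn, which acylates Wnt ligands, fell (-0.31, adjusted p = 0.0265, limma), as did the beta-catenin kinase Csnk1a1 (-0.31, adjusted p = 0.0172, limma). Each of these 2 calls was lost without circRNA replicate 1 or knockout replicate 1 or 2, and that of Porcn also without circRNA replicate 3 or knockout replicate 3 or 4. The other alternative fits called up to 6 folate enzymes and up to 6 monomer binding or capping genes lower. They also called up to 3 nucleation genes and up to 2 Wnt receptors in each direction.

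For circRNA against wild type, partners moved in both directions. The counts of called partners are to be read beside the 17.8% of all tested genes called higher and the 8.05% called lower. Of 9 tested Wnt receptors, Fzd7 (1.04, adjusted p = 1.78e-05, limma) and Fzd5 (0.34, adjusted p = 0.0029, limma) rose, and Fzd4 (-0.62, adjusted p = 0.0063, limma) and Fzd6 (-0.75, adjusted p = 0.0285, limma) fell. With single libraries left out, 1 to 2 receptors were called lower. Of 3 tested ligand genes, Rspo1, a secreted Wnt enhancer, rose (0.73, adjusted p = 6.57e-05, limma), as did Wls, the Wnt carrier (0.27, adjusted p = 0.0116, limma). None of the 5 tested antagonists passed the threshold, though 4 of them were called lower when libraries were rescaled to the same FPKM sum. Of 6 targets, Axin2 fell (-0.73, adjusted p = 0.0280, limma), a call lost without wild type replicate 1 or 3 or without circRNA replicate 1 or 2. Of 13 effectors, Bcl9l (-0.59, adjusted p = 0.000145, limma) and Tcf7l2 (-0.47, adjusted p = 0.0030, limma) fell. Ctnnb1, beta-catenin, rose (0.37, adjusted p = 0.0369, limma), as did Gsk3a (0.22, adjusted p = 0.0267, limma), and without circRNA replicate 2 or 3 no effector was called higher. The sign of Gsk3a turned under the rescaling.

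Of 7 tested matrix genes 4 fell, Col6a3 (-1.13, adjusted p = 0.000653, limma), Eln, elastin (-0.87, adjusted p = 0.0133, limma), Col4a2 (-0.82, adjusted p = 0.0358, limma) and Fn1 (-0.73, adjusted p = 0.0364, limma). Postn, periostin, rose (0.67, adjusted p = 0.000192, limma). Lox differed from wild type in the opposite direction to these 4 genes, among which Eln is a substrate. Markers of vessel wall cells and border macrophages fell in the same comparison: 6 of 7 tested mural markers, 4 of 8 endothelial and 6 of 8 border macrophage markers were called lower (medians -1.12, -0.83 and -1.003), 1 mural marker was called higher, and their part in the matrix genes was not tested. The mural count was 4 without wild type replicate 3. The endothelial count was 1 without wild type replicate 1 or 3, 2 without circRNA replicate 1 or 2 or with the 2 groups alone, and 8 without wild type replicate 2. With single libraries left out, 1 to 5 matrix genes were called lower: 1 without wild type replicate 3, and 2 without wild type replicate 1 or without circRNA replicate 1, 2 or 4. Of 6 collagen maturation genes, P4hb rose (0.44, adjusted p = 0.0238, limma) and Pcolce, a procollagen protease enhancer, fell (-0.72, adjusted p = 0.0258, limma). Neither was called without circRNA replicate 2 or 3, and Pcolce was not without wild type replicate 1 or circRNA replicate 1.

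Of 18 folate enzymes 6 rose and none fell, among them Ggh, gamma-glutamyl hydrolase (0.90, adjusted p = 0.000579, limma), Mthfd2 (0.96, adjusted p = 0.0011, limma) and Mthfd1l (0.35, adjusted p = 0.0055, limma). Atic, of purine synthesis, rose by 0.32 (adjusted p = 0.0151, limma). Of 21 actin nucleation genes 6 rose and none fell, led by Coro1c (0.97, adjusted p = 1.47e-06, limma) and Arpc3 (0.78, adjusted p = 0.000393, limma). With single libraries left out, 5 to 8 nucleation genes were called higher and 0 to 2 lower. Of 15 monomer binding and capping genes 3 rose: Capg, a macrophage capping protein (2.26, adjusted p = 4.21e-07, limma), Cap1 (0.74, adjusted p = 0.0014, limma) and Capzb (0.39, adjusted p = 0.0319, limma). Tmsb4x rose by 0.64 (adjusted p = 0.0189, limma), a call lost without wild type replicate 3 or circRNA replicate 2, and Tmsb10 by 1.16.

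Under the rescaling the circRNA against wild type calls in these lists shifted downwards, to 2 higher and 3 lower folate enzymes, 4 higher and 5 lower nucleation genes, and 2 higher and 5 lower Wnt receptors. It gave 0 higher and 9 lower effectors, 0 higher and 4 lower targets, 0 higher and 4 lower antagonists, and 1 higher and 5 lower matrix genes. Of 15 monomer binding and capping genes 2 were higher and 2 lower, all 5 folate transport genes were lower, and the call of Tmsb4x was lost (log2 difference 0.35). Of all tested genes 9.20% were called higher and 43.3% lower under the rescaling, beside 17.8% and 8.05% without it. Collagen maturation genes went to 0 higher and 3 lower, so P4hb lost its call (log2 difference 0.15), and Wnt ligand genes to 1 higher and 1 lower, with Wls at 0.02. Fitted on the 2 groups alone, fewer partners were called: 3 folate enzymes, 4 nucleation genes, 2 monomer binding and capping genes, 2 receptors, 1 ligand gene and 1 matrix gene were higher. In that fit 2 matrix genes, 2 effectors and 1 receptor were lower, and no target, collagen maturation gene or thymosin was called.

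Immediate-early genes, which cells switch on within minutes of a stimulus or of handling, were measured as a list of 20. Their summed FPKM was 949 to 1516 in wild type, 1634 to 1755 with EGFP, 1088 to 1556 with circRNA and 1999 to 2498 in the knockout. The knockout libraries were above all others here, as for the 4 members. The circRNA libraries were below both EGFP libraries, where the members were not, and the list's median for circRNA against EGFP was -0.35 with 0 of 20 called. For knockout against EGFP, 1 of 20 was called, Maff (0.89, adjusted p = 0.0430, limma), and the list's median was 0.45 against 0.01 for all tested genes. With single libraries left out, no gene of the list was called in 10 of 13 fits, 2 were higher without circRNA replicate 4 and 5 without wild type replicate 3, while the median stayed at 0.39 to 0.58. With arrayWeights 8 were higher and 2 lower, with the 2 groups alone 7 were higher, with the replicate block 3 and with median-ratio scaling 2. Within the list the largest differences were downward, in the heat shock genes Hspa1a and Hspa1b (-1.59 and -1.58, adjusted p = 0.2164 and 0.2277, limma).

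For knockout against circRNA, 16 of 20 immediate-early genes rose and none fell, with a median of 0.92 against -0.08 for all tested genes. Among them were Maff (1.04, adjusted p = 0.0015, limma), Ier2 (1.34, adjusted p = 0.0031, limma), Zfp36 (1.40, adjusted p = 0.0048, limma), Junb (1.13, adjusted p = 0.0056, limma) and Fos (1.40, adjusted p = 0.0071, limma). The count was 9 without knockout replicate 1 and 10 without knockout replicate 2. For circRNA against wild type 4 of 20 rose and 2 fell, near the 17.8% and 8.05% of all tested genes, or 8 and 2 without wild type replicate 1. The part of these genes, and of the greater depth of the knockout libraries, in the levels of the 4 members was not tested.

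The markers of microglia were all present: 12 of 12 were tested, with summed FPKM of 3795 to 6154 in wild type, 5263 to 5784 with EGFP, 5103 to 7679 with circRNA and 6347 to 6540 in the knockout. Fibroblasts and vessel wall cells also make Lox. The 10 fibroblast markers, of which none reached the filter and none was 0 throughout, summed to 5.37 to 7.95 FPKM in wild type, 2.03 to 3.01 with EGFP, 2.62 to 4.48 with circRNA and at most 3.15 in the knockout. The 9 mural markers, of which 7 were tested, summed to 54.7 to 120 FPKM in wild type, 21.8 to 41.2 with EGFP, 31.6 to 47.7 with circRNA and 26.7 to 46.3 in the knockout. The 8 endothelial markers, all tested, summed to 76.1 to 176 FPKM in wild type, 33.3 to 48.0 with EGFP, 47.3 to 96.4 with circRNA and 48.8 to 71.5 in the knockout, where every library was above both EGFP libraries. Markers of border macrophages (8 of 8 tested) summed to 46.1 to 72.4 FPKM in wild type and 18.6 to 32.5 in the 5xFAD groups.

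Summed oligodendrocyte and neuron markers were lower in every knockout library than with EGFP, beside the higher levels of the 4 members, although none of these markers was called. The 10 oligodendrocyte markers, of which 9 were tested, summed to 362 to 1607 FPKM in wild type, 660 to 701 with EGFP, 318 to 806 with circRNA and 234 to 385 in the knockout. Every knockout library was below both EGFP libraries, and the knockout and circRNA libraries overlapped. The median log2 difference of these markers was -1.29 for knockout against EGFP and -0.85 for knockout against circRNA. The 10 neuron markers, of which 5 were tested, summed to 29.4 to 34.5 FPKM with EGFP and 12.6 to 22.4 in the knockout, with medians of -0.69 against EGFP and -0.03 against circRNA. The 8 astrocyte markers, all tested, summed to 155 to 224 FPKM with EGFP and 148 to 238 in the knockout, which overlapped, with medians of -0.45 and -0.47. The endothelial median was 0.39 against EGFP and -0.20 against circRNA. No tested marker of the 10 cell type lists was called for knockout against EGFP or against circRNA. In some alternative fits oligodendrocyte markers were called lower: 8 of 9 against EGFP with the 2 groups alone and 7 with arrayWeights, and against circRNA 8 with arrayWeights, 3 without circRNA replicate 2 and 2 without wild type replicate 3. Other markers were also called in some alternative fits. Against EGFP these were 2 neuron markers lower with the 2 groups alone and 1 with arrayWeights, and 1 endothelial marker higher in each. Against circRNA they were 3 astrocyte markers lower with arrayWeights and 2 without wild type replicate 3, and 1 border macrophage marker lower with arrayWeights or without circRNA replicate 4. The 8 monocyte and neutrophil markers, of which 2 were tested, summed to 5.28 to 6.62 FPKM in wild type and 3.85 to 8.41 with EGFP. With circRNA they summed to 1.92 to 8.19 FPKM and in the knockout to 1.66 to 17.5, the widest range. Their medians were -0.21 against EGFP and 0.03 against circRNA. The part of these cell types in the levels of the 4 members was not tested.

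Genes with the most similar profile were ranked by the root mean square difference of log2(FPKM + 1) about each gene's mean over the 13 libraries, in log2 units. For Dkk2 these were Atp6v0d2 (0.19), a proton pump subunit, Apoe (0.25), the lipid carrier, and Lox (0.27), beside a spread of Dkk2 itself of 1.22. For Lox they were Cacna1a (0.20), a calcium channel subunit, Atp6v0d2 (0.20) and Cd200r4 (0.21), beside 1.03. Atp6v0d2 had means of 0.0181 FPKM in wild type, 3.80 with EGFP, 4.65 with circRNA and 6.72 in the knockout, in the same order of groups as Dkk2 and below it in each.

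For Tmsb10 the nearest were Nfkbiz (0.23), an inducible regulator of NF-kappaB, Ptger4 (0.24), a prostaglandin receptor, and Atf3 (0.25), a stress-induced transcription factor and one of the immediate-early genes listed, beside 0.74. For Mthfs they were Sipa1l2 (0.10), Rasgef1b (0.11) and Mpp7 (0.12), beside 0.35. Among the members, Dkk2 and Lox were nearest to each other (0.27), and Mthfs and Dkk2 were farthest apart (0.94). Tmsb10 lay between, at 0.45 from Lox and 0.43 from Mthfs.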

How the data were processed

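The authors deposited 1 table of FPKM values with 1 column for each library, not pooled. Per the labels' protocols, RNA was depleted of ribosomal RNA, made into stranded total RNA libraries (TruSeq) and sequenced on a NovaSeq. The submitters' processing notes name Bowtie2 2.3.5, HISAT2 2.1.0, featureCounts 1.5.1 and build mm10, without their roles. The strand setting and treatment of shared reads are not given in the sources used here. The 13 libraries were grouped by title.

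Differences were fitted with limma 3.58.1 (R 4.3.3) on log2(FPKM + 1) in the 10817 genes that averaged 1 FPKM or more, in 1 model of 4 group means (9 residual degrees of freedom) with an intensity trend. P-values were adjusted by Benjamini-Hochberg within each of 6 comparisons, with a threshold of 0.05. Depth and fragments were recovered from the FPKM steps with GENCODE M21 exon lengths (19394 genes). Of 47122 values below 0.3 FPKM, 90.7% were whole fragments within 0.02. FPKM is relative to each library's total, so abundant genes that change move others. The fit was tested on simulated data.

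The members and lists were chosen with earlier results of these data known. Named genes were drawn from the members, Eif2ak2, the 3 nearest profiles, and the first gene outside the threshold. Each list gave up to 5 called genes by adjusted p, and the 2 with the largest difference for knockout against EGFP. Relatives, genomic neighbours and receptors of the members were named besides, as was Cdkn1a. Some genes that these rules cover are not named. Replicate numbers in the titles recur across groups, and a fit with them as a block was an alternative. Sequences came from GENCODE M21 and RefSeq (GRCm38.p6). The promoter table has no row for Lox. One list gene that was called is not reported here.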

Additional observations from a re-analysis of the deposited data

Results flagged for a closer look

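Of 8 groups of 4 libraries examined (the 4 genes in the circRNA and PKR knockout groups), 1 held a library far from the others. Mthfs in circRNA replicate 2 was 3.76 FPKM, and the other 3 circRNA libraries lay between 3.19 and 3.21. The gap was 0.951 of the group's range, where chance passes Dixon's 95% limit in about 1 in 20 groups. That library also had the highest ratio of Mthfs to Mthfsl of its group (1.16, beside 0.864 to 1.04).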

How the results depend on the processing

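Against wild type, circRNA-treated 5xFAD kept all 4 genes higher in 22 alternatives, with log2 differences of 2.40 to 6.23 for Dkk2, 2.16 to 3.91 for Lox, 0.91 to 1.31 for Tmsb10 and 0.18 to 0.54 for Mthfs. Mthfs missed the threshold in 1 of them, the rescaling to the same FPKM sum (0.18, adjusted p = 0.0953, limma). For knockout against EGFP, the comparison that chose the genes, the range was 0.95 to 1.17 for Dkk2 and 0.55 to 0.73 for Lox. It was 0.76 to 1.05 for Tmsb10 and 0.52 to 0.71 for Mthfs. The Mthfs value was 0.69 with a pseudocount of 0.1 and 0.71 with voom on recovered fragments, an alternative added after seeing the data. The 9 genes called for knockout against EGFP became 0 with a pseudocount of 0.1, without the filter, with rescaling and with voom, 46 with median-ratio scaling, 22 with the replicate block, 577 with the 2 groups alone and 822 with arrayWeights. Leaving out single libraries gave 0 to 58, the highest without wild type replicate 3. For knockout against circRNA, 670 genes became 3161 with arrayWeights and 147 to 1339 with single libraries left out, lowest without knockout replicate 1 and highest without wild type replicate 3. EGFP against wild type (1514) gave 3709 rescaled (708 higher, 3001 lower, beside 827 and 687), 509 with the 2 groups alone and 566 to 1998 with single libraries left out. CircRNA against wild type (2796) gave 5676 rescaled (995 higher, 4681 lower, beside 1925 and 871), 1725 with the 2 groups alone and 2171 to 2864 with single libraries left out. Knockout against wild type (3997) gave 6595 rescaled (1174 higher, 5421 lower, beside 1898 and 2099). Rescaled, knockout against circRNA gave 344 higher and 339 lower, beside 207 and 463. The cause of these shifts was not tested. Of 1848 counts of list genes over the settings, 271 moved by more than 1.5 times.

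The replicate numbers did not pair the libraries by the labels. Correlations of same-numbered libraries ran from -0.42 to 0.69 over 3 pairs for circRNA against wild type and from 0.04 to 0.55 over 4 pairs for knockout against circRNA, where 2 of 8 libraries correlated best with their own number. For knockout against EGFP they were 0.27 and 0.38 over 2 pairs, and 4 of 4 libraries correlated best with their own number. With only 2 EGFP libraries, deviations from their mean are mirror images, so a knockout library's best match depends on sign alone. With the replicate block the log2 differences of circRNA against wild type were 2.61 for Dkk2, 2.27 for Lox, 0.39 for Mthfs and 1.13 for Tmsb10. Depth limits Dkk2 in wild type, which rests on 10 to 17 fragments in each library.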
